A study of Danio rerio with 4 samples.

Results

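The Wnt ligand, receptor and antagonist genes were followed in RNA of zebrafish embryos mutant for *goosepimples* (*gsp*, the gene of the motor protein Myosin Vb) or *romeharsha* (*rhs*, whose gene the study gives as unknown). The members were all transcripts of the deposited table whose gene symbol begins with wnt and a digit, fzd, sfrp, dkk or axin, or is lrp5 or lrp6. This rule, which uses no measured value, gave 48 of 27423 transcripts, with 47 different symbols because *fzd6* has 2 entries. They were 23 ligands, 13 frizzled receptors, 2 co-receptors, 4 secreted frizzled-related proteins, 4 dickkopf proteins and 2 axins, and they lay on 21 chromosomes of the danRer7 genome build. Of the 48, 40 had a value of at least 100 in all 4 libraries, as had 13633 of all transcripts, and ratios were taken over these.

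The study compared 4 pools of whole embryos: homozygous *gsp* mutants with *gsp* siblings, and homozygous *rhs* mutants with *rhs* siblings. Each line came from crosses of heterozygous carriers, so that a sibling pool mixed wild-type and heterozygous embryos. Mutants were separated from siblings at 43 hours post fertilization (hpf), were not treated, and gave RNA at 48 hpf, a stage chosen for the rounding of cells in the periderm, the outer layer of the embryonic skin. A pool held 20 embryos out of 3 clutches by the labels. The paper gives another number. With 1 library per condition a line has no replicate error of its own, so its ratios are given without a test or a p-value. A joint fit of both lines, with line as a block, would have had 1 residual degree of freedom and was left out, since it takes 2 different mutations as replicates of each other. The error stated with a ratio is a 95% counting interval (exact Clopper-Pearson), which covers counting error only and assumes that the values are counts of independent molecules. The paper gives paired-end reads, and how a pair was counted was not examined. If each read of a pair was counted, the interval is too narrow even for counting error. Both sibling pools lacked the mutant phenotype, and the ratio of *gsp* sibling over *rhs* sibling is given beside the results as a description of how far the libraries of the lines differ without it.

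Wnt proteins are secreted lipid-modified ligands that bind frizzled receptors on nearby cells. Together with the co-receptors Lrp5 and Lrp6 they halt the breakdown of β-catenin, which then enters the nucleus and activates target genes with TCF and LEF factors, while other ligands act through planar cell polarity and calcium to direct cell movement. Secreted frizzled-related proteins bind the ligands outside the cell, dickkopf proteins block the co-receptors, and axins hold together the complex that destroys β-catenin. In the zebrafish embryo the pathway patterns the brain, the tail and the fins and drives gastrulation movements.

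The totals of the 4 libraries were between 106188690 and 118680429 estimated counts, unscaled, with a floor of 1. Over all transcripts the median log2 ratio of mutant over sibling was -0.11 in *gsp* and -0.20 in *rhs*, so an average transcript read slightly lower in the mutants without scaling. *myo5b*, the gene mutated in *gsp*, lay at chr21:21508888-21662553 and was listed at the floor in the 2 *gsp* libraries, at 193 in the *rhs* mutant against 87.8 in the *rhs* sibling, and so it does not check the *gsp* labels. The table marks each transcript FL or MO in each line, without a stated meaning. Transcripts marked MO in both lines differed more between the siblings (SD of log2 ratios 1.14, 35.0% past 1.48-fold) than those marked FL in both (0.35 and 8.40%), and 10 of the 40 members were marked MO.

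Of the 40 Wnt genes, 30 were within the study's threshold of 1.48-fold in both mutants. Past it either way were 5% of the members in *gsp* and 20% in *rhs*, against 9.902% and 19.03% of all transcripts. The counting interval left out a ratio of 1 for 29 of 40 in *gsp* and 33 of 40 in *rhs*. The share within the threshold in both mutants and the shares by interval were not taken over all transcripts. Unscaled, the median ratio of all transcripts was itself below 1, at 0.927 in *gsp* and 0.872 in *rhs*. An interval that leaves out 1 therefore does not set a member apart from all transcripts. In *gsp* no member was higher in the mutant by the threshold of 1.48-fold, and 2 were lower, *dkk2* and *wnt5b*. Over all transcripts 5.07% were higher and 4.83% lower in *gsp*, and the members' shares were 0% and 5%. In *rhs* 3 members were higher (*wnt9b*, *dkk1b* and *wnt3a*) and 5 were lower (*fzd8b*, *wnt8b*, *sfrp1b*, *sfrp2* and *axin1*). These are 7.5% and 12.5% of the 40, against 6.45% higher and 12.6% lower among all transcripts in *rhs*, so that the members' shares were near the background in both directions. No member passed the threshold the same way in both mutants, where 3.52% of all transcripts were higher and 0.976% were lower. The median log2 ratio of the members was -0.12 in *gsp* and -0.28 in *rhs*, close to that of all transcripts. Scaling changed the split in *rhs*: with ratios centred on the median of all transcripts, with TMM scaling, or in the authors' normalized columns, 5 members were higher and 1 was lower. Either way together these are 15% of the members, against 15.29% to 15.35% of all transcripts. With median-centred ratios, TMM scaling or values divided by the library total, *wnt3a* was past the threshold in both mutants. The shares of all transcripts by direction, or past it in both mutants, were not taken after scaling.

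**Figure D1:**
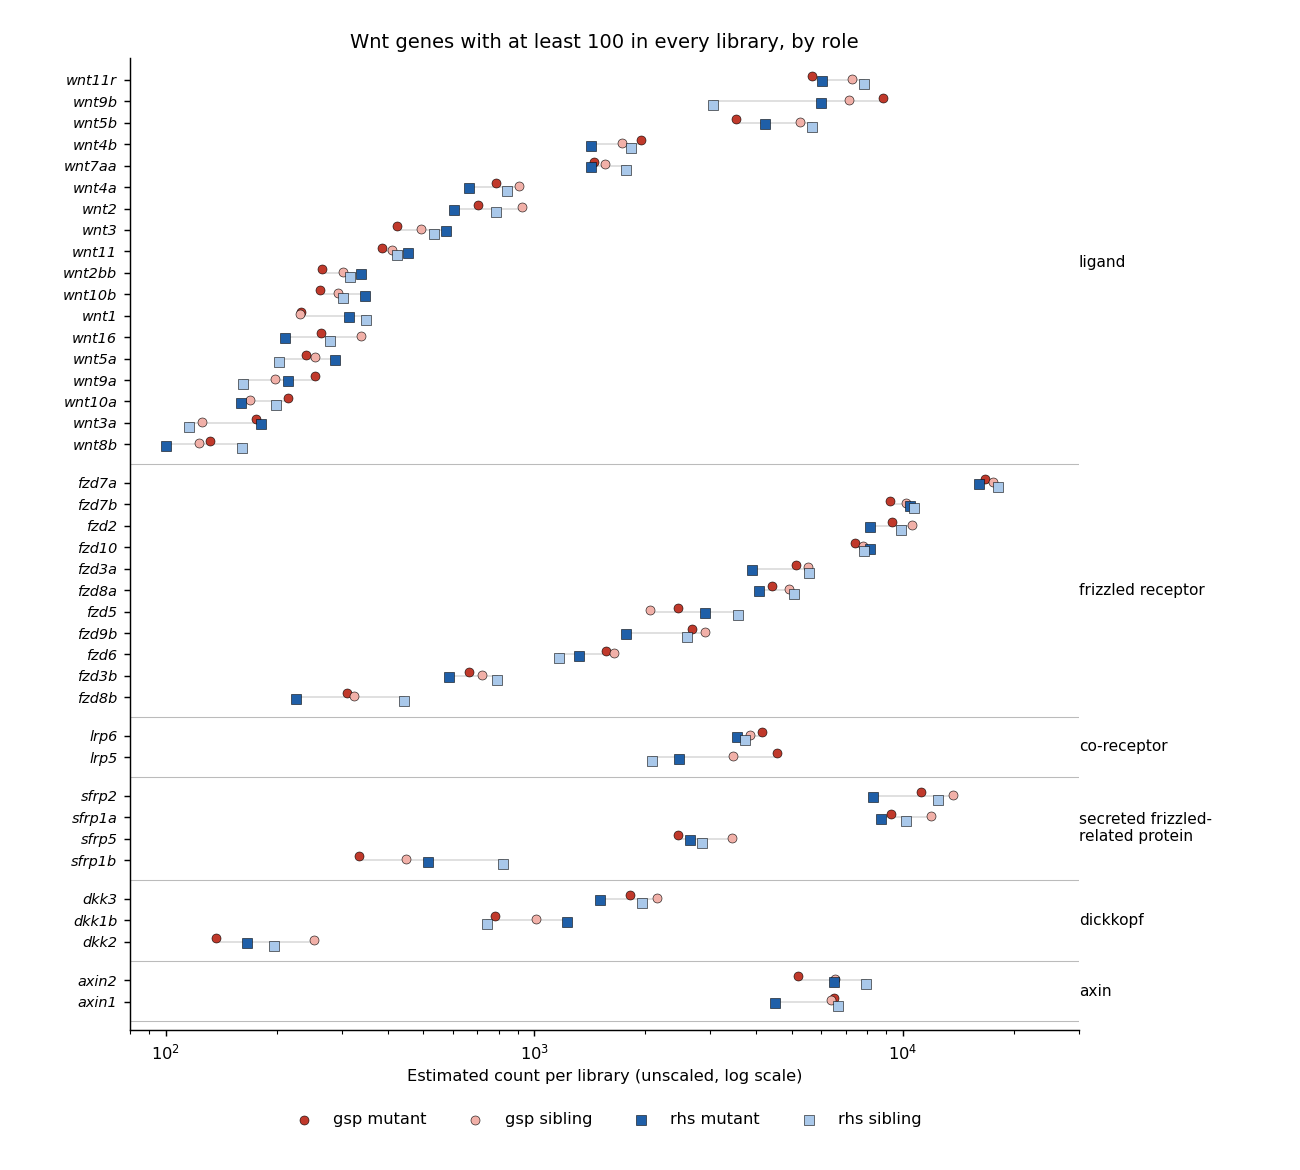
Estimated counts (unscaled, log scale) of the 40 Wnt genes with at least 100 in every library, by role and sorted by mean, with 1 point per library (circles *gsp*, squares *rhs*, dark mutant, light sibling) and a grey line over the range of the 4. Values of 1 gene can be compared between libraries, and values of different genes cannot, because they are not given per length; most genes' 4 points lie close together, while *wnt9b*, with 8834 in the *gsp* mutant and 3056 in the *rhs* sibling, spreads widely.

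Between the siblings themselves 2 members were higher in *gsp* (*lrp5* and *wnt9b*) and 3 were lower (*fzd5*, *wnt1* and *sfrp1b*), against 8.9% and 9.58% of all transcripts. The SD of the members' log2 ratios was 0.28 in *gsp*, 0.41 in *rhs* and 0.37 between the siblings. The mutant ratio was larger in size than the sibling ratio for 26 of 40 members (65%) in *gsp* and for 30 of 40 (75%) in *rhs*, against 47.2% and 55.2% of all transcripts. These shares are not like for like, because over all transcripts the siblings differed more than over the members. The SD over all transcripts was 0.73 between the siblings, 0.42 in *gsp* and 0.50 in *rhs*. In bulk RNA of whole embryos, fewer cells of a kind and less RNA per cell cannot be told apart.

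Among the 18 ligands measured, *wnt5b* was lower in *gsp*, *wnt9b* and *wnt3a* were higher in *rhs*, and *wnt8b* was lower in *rhs*. *wnt5b* (chr4:7496676-7590398), a ligand that acts mainly without β-catenin and is needed for tail extension and cartilage shaping in zebrafish, had 3531 estimated counts in the *gsp* mutant against 5264 in the *gsp* sibling, and 4231 in the *rhs* mutant against 5659 in the *rhs* sibling. Both mutants lay below both siblings. The ratio in *gsp* was 0.671 (0.643 to 0.700) and that in *rhs* 0.748 (0.718 to 0.778), with the siblings at 0.930, and the *gsp* call was lost with median-centred ratios, TMM scaling, division by the library total and a pseudocount of 100 (log2 ratios between -0.56 and -0.45). *fbxl14b*, the gene of an F-box protein, lies within the same span on the opposite strand, with 2744 in the *gsp* mutant against 3195 in the *gsp* sibling, and 2721 in the *rhs* mutant against 3897 in the *rhs* sibling. Whether strand was used in counting is not given in the sources used here. Without it, reads from any exon sequence the pair shares could not be told apart. Only the spans were compared, and whether the exons overlap was not examined. In *gsp* 3 of 8 fin fold markers were also below the threshold, the actinotrichia genes *and1* (ratio 0.463), *and2* (0.535) and *and3* (0.206). The other fin fold markers were within it, with ratios from 0.788 (*msxc*) to 1.03 (*fbln1*). The list's summed count was 113971 in the *gsp* mutant against 233003 in the *gsp* sibling, most of it from *and1*, *and2* and *and3*. In *rhs* 0 of the 8 fin fold markers passed the threshold, and 2 had a log2 ratio below 0. Their median there was 0.23, and the sum was 203368 in the *rhs* mutant against 182406 in the *rhs* sibling. The part of the fin fold in the *wnt5b*, *dkk2* and *fgf8a* values of the *gsp* mutant was not tested. The *wnt5b* transcript is marked MO in both lines.

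*wnt9b* (chr3:37569667-37576402), a ligand known in the mouse for kidney tubule and face development, had 8834 in the *gsp* mutant against 7114 in the *gsp* sibling, and 5998 in the *rhs* mutant against 3056 in the *rhs* sibling. The *rhs* sibling stood apart from the other 3 libraries. The ratio in *gsp* was 1.24 (1.20 to 1.28) and that in *rhs* 1.96 (1.88 to 2.05), but the *gsp* sibling was 2.33-fold above the *rhs* sibling, a larger difference than that between *rhs* mutant and sibling. With the *gsp* sibling as control the *rhs* mutant was lower, at a log2 ratio of -0.25. The transcript is marked MO in both lines.

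*wnt3a* (chr2:3599278-3652698), a β-catenin ligand of the tail bud and dorsal neural tube, had 176 in the *gsp* mutant against 125 in the *gsp* sibling, and 181 in the *rhs* mutant against 115 in the *rhs* sibling. The siblings differed by a ratio of 1.08 (log2 0.12), and both mutants lay above both of them. The ratio was 1.41 (1.11 to 1.79) in *gsp*, just inside the threshold, and 1.57 (1.24 to 2.01) in *rhs*, with wide counting intervals at this depth. The *rhs* call was lost with a pseudocount of 100 (log2 0.38) and with the *gsp* sibling as control (0.53). Its neighbour *wnt9a* begins 42430 bp away on the other strand and was also above both siblings in both mutants: 253 in the *gsp* mutant against 198 in the *gsp* sibling, and 215 in the *rhs* mutant against 162 in the *rhs* sibling, a ratio of 1.28 in *gsp* and 1.33 in *rhs*. Unscaled, these were the only 2 members of 40 with both mutants above both siblings, 5% of them, against 10.3% of all transcripts. With TMM scaling there were 5 (*fzd10*, *wnt11*, *wnt3a*, *wnt5a* and *wnt9a*), 12.5% against 16.5%. The other close pair of measured ligand genes was *wnt10b* and *wnt1* on chromosome 23, with 5158 bp between them. Their log2 ratios in *rhs* were 0.20 for *wnt10b* and -0.15 for *wnt1*, and in *gsp* -0.16 and 0.01. Each of these counting intervals held a ratio of 1, so no direction is set for either gene.

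*wnt8b* (chr13:30217195-30229862), a ligand of forebrain and hindbrain patterning, had 131 in the *gsp* mutant against 123 in the *gsp* sibling, and 100.4 in the *rhs* mutant against 161 in the *rhs* sibling. The *rhs* mutant was lowest and the *rhs* sibling highest, with both *gsp* libraries between. The ratio in *gsp* was 1.06 (0.826 to 1.37) and that in *rhs* 0.624 (0.479 to 0.802). The *rhs* call was kept under 7 of 13 alternatives, but some of these only select transcripts and cannot change the ratio. Of those that change it, the call was kept with a pseudocount of 10 and division by the library total. It was lost with a pseudocount of 100 (log2 -0.38), median-centred ratios (-0.48), TMM scaling and the authors' normalized columns. It was also lost with the *gsp* sibling as control (-0.30) and with the mean of both siblings (-0.50).

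The remaining ligands stayed within the threshold in both mutants, unscaled and against their own siblings. In *rhs*, *wnt5a* was past it with median-centred ratios, TMM scaling, division by the library total and the authors' normalized columns. *wnt9a* was past it in *rhs* under the same scalings except division by the library total. *wnt11r*, the ligand with the highest mean value, had 5653 in the *gsp* mutant against 7277 in the *gsp* sibling, and 6044 in the *rhs* mutant against 7827 in the *rhs* sibling, with *gsp* at a ratio of 0.777 (0.750 to 0.804) and *rhs* at 0.772 (0.747 to 0.799). The table's symbols *wnt11* and *wnt11r* correspond in RefSeq (GRCz12tu) to *wnt11f2*, the *silberblick* gene of gastrulation movements, and to *wnt11*. *wnt2*, *wnt16*, *wnt4a* and *wnt7aa* likewise had both mutants below both siblings, with ratios between 0.763 (*wnt2*) and 0.934 (*wnt7aa*) in *gsp* and between 0.756 (*wnt16*) and 0.802 (*wnt7aa*) in *rhs*. *wnt16*, which zebrafish need for blood stem cell specification, had 264 in the *gsp* mutant against 338 in the *gsp* sibling, and 210.3 in the *rhs* mutant against 278 in the *rhs* sibling. For *wnt10a*, a ligand of the skin and its appendages, the lines pointed apart without scaling: 214 in the *gsp* mutant against 169 in the *gsp* sibling (ratio 1.27, 1.03 to 1.56), and 160.4 in the *rhs* mutant against 199.6 in the *rhs* sibling (0.804, 0.646 to 0.990). That *rhs* interval held the median ratio of all transcripts in *rhs*, 0.872, so no direction is set relative to it. Unscaled, *wnt5a* pointed apart the other way, with 239.5 in the *gsp* mutant against 255 in the *gsp* sibling (0.940, 0.786 to 1.13), and 287 in the *rhs* mutant against 203 in the *rhs* sibling (1.42, 1.18 to 1.70). The *gsp* interval of *wnt5a* held a ratio of 1, so no direction is set for it in *gsp*. *wnt4b*, a floor plate ligand, had log2 ratios of 0.17 in *gsp* and -0.36 in *rhs*. *wnt2bb*, the ligand of the liver bud, *wnt3* and *wnt11* had log2 ratios between -0.22 and -0.09 in *gsp* and of 0.10 or 0.11 in *rhs*. *wnt1*, expressed at the midbrain-hindbrain boundary, had 232 in the *gsp* mutant against 231 in the *gsp* sibling, and 314 in the *rhs* mutant against 349 in the *rhs* sibling, so that the lines differed more than mutant and sibling.

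Of the 11 frizzled receptors measured, 1 passed the threshold, *fzd8b* in *rhs*. *fzd8b* (chr2:48069332-48071842) had 309.8 in the *gsp* mutant against 324 in the *gsp* sibling, and 226 in the *rhs* mutant against 442 in the *rhs* sibling. The *rhs* mutant was the lowest library, and the *rhs* sibling the highest. The ratio in *gsp* was 0.955 (0.816 to 1.12) and that in *rhs* 0.511 (0.434 to 0.602), with the siblings at 0.735. The *rhs* call was lost with the *gsp* sibling as control (log2 -0.52). It was kept with the mean of both siblings, with pseudocounts of 10 and 100 and under every scaling tried. Its paralogue *fzd8a* had a log2 ratio of -0.32 in *rhs* and -0.16 in *gsp*.

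The other frizzled receptors were within the threshold. Without scaling, 10 of 11 had a log2 ratio below 0 in *gsp* (all but *fzd5*) and 9 of 11 in *rhs* (all but *fzd10* and *fzd6*), but relative to the median of all transcripts these counts were 5 and 7. *fzd7a*, needed for gastrulation movements and the frizzled with the highest mean value, had 16643 in the *gsp* mutant against 17564 in the *gsp* sibling, and 16085 in the *rhs* mutant against 18118 in the *rhs* sibling, with *gsp* at a ratio of 0.948 (0.928 to 0.968) and *rhs* at 0.888 (0.869 to 0.907). *fzd9b* stayed just short of the lower limit in *rhs*, with 2669 in the *gsp* mutant against 2896 in the *gsp* sibling, and 1777 in the *rhs* mutant against 2594 in the *rhs* sibling, a ratio of 0.685 (0.645 to 0.728) in *rhs* where the limit is 0.676. *fzd3a*, a receptor of axon guidance and neuronal migration, followed at 0.701 (0.673 to 0.731) in *rhs* and 0.929 in *gsp*, and its paralogue *fzd3b* was at 0.740 in *rhs* and 0.923 in *gsp*. The *fzd6* entry at the minimum had 1565 in the *gsp* mutant against 1640.4 in the *gsp* sibling, and 1323 in the *rhs* mutant against 1167 in the *rhs* sibling. *fzd5*, a receptor of eye development, had 2459 in the *gsp* mutant against 2057 in the *gsp* sibling, and 2898 in the *rhs* mutant against 3576 in the *rhs* sibling, so that both *rhs* libraries lay above both *gsp* libraries and the siblings differed by a ratio of 0.575. *fzd2*, *fzd7b* and *fzd10* had ratios between 0.885 and 0.953 in *gsp* and between 0.824 and 1.04 in *rhs*.

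Neither co-receptor passed the threshold. *lrp6* had 4145 in the *gsp* mutant against 3835 in the *gsp* sibling, and 3535 in the *rhs* mutant against 3729.8 in the *rhs* sibling, ratios of 1.08 (1.03 to 1.13) and 0.948 (0.905 to 0.993). *lrp5* had 4564 in the *gsp* mutant against 3454 in the *gsp* sibling, and 2464 in the *rhs* mutant against 2089 in the *rhs* sibling. Both mutants stood above their own siblings, at 1.32 (1.26 to 1.38) in *gsp* and 1.18 (1.11 to 1.25) in *rhs*, but both *gsp* libraries lay above both *rhs* libraries and the siblings differed more, 1.65-fold.

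**Figure D2:**
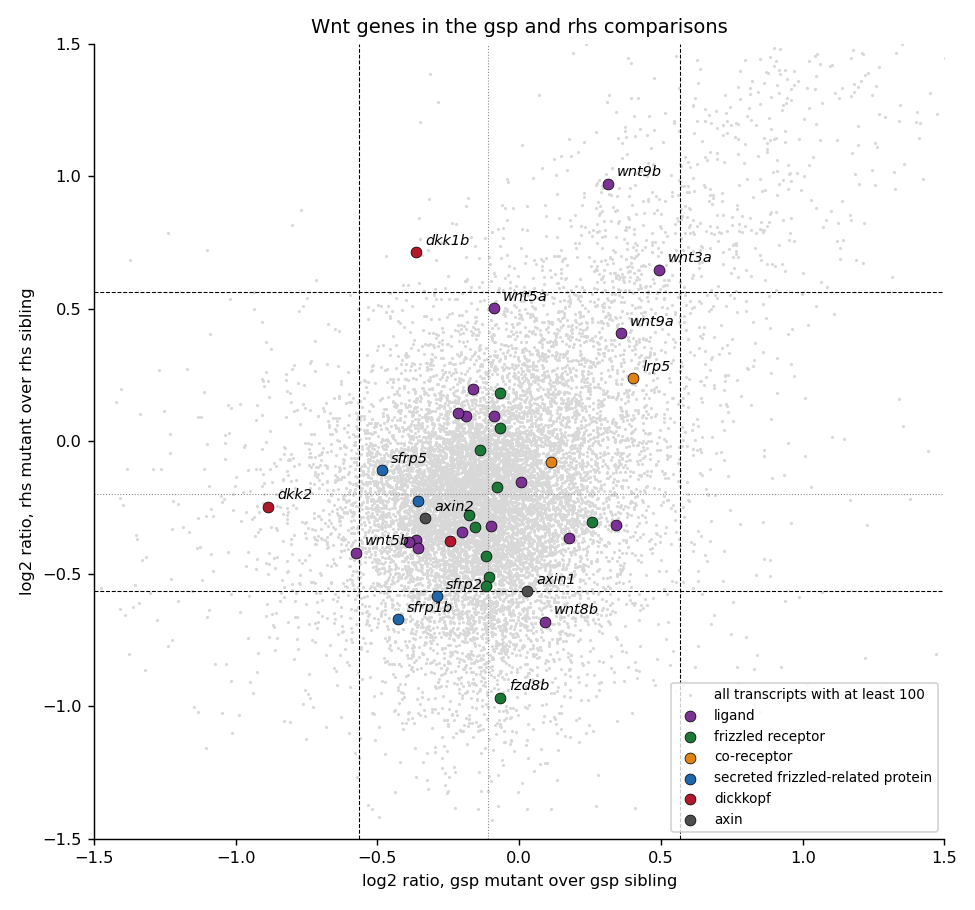
Each point is a transcript with at least 100 in every library, at its log2 ratio in *gsp* (x axis, mutant over sibling) and in *rhs* (y axis, mutant over sibling), grey for all transcripts and coloured by role for the 40 Wnt genes. Dashed lines mark 1.48-fold, dotted lines the median of all transcripts, and 231 transcripts beyond 1.5 on either axis are not drawn; no Wnt gene lies in the corner boxes for both mutants, and *wnt3a* comes nearest to the upper one.

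The 4 secreted frizzled-related proteins were all lower than in siblings in both mutants without scaling, with ratios between 0.715 and 0.817 in *gsp* and between 0.628 and 0.928 in *rhs*. Relative to the median of all transcripts, all 4 remained below 0 in *gsp* and 3 of 4 in *rhs*, where *sfrp5* was at 0.09. The group's median log2 ratio was -0.39 in *gsp* and -0.41 in *rhs*, against -0.11 and -0.20 for all transcripts. *sfrp2* (chr1:24346777-24353533), the member of the group with the highest mean, had 11185 in the *gsp* mutant against 13688 in the *gsp* sibling, and 8279 in the *rhs* mutant against 12419.8 in the *rhs* sibling. Both mutants lay below both siblings, with the *rhs* mutant lowest, with *gsp* at a ratio of 0.817 (0.797 to 0.838) and *rhs* at 0.667 (0.648 to 0.685), and the *rhs* call was lost under the 4 scalings tried (log2 ratios between -0.52 and -0.39). *sfrp1b* (chr10:20385346-20390882) had 334 in the *gsp* mutant against 449 in the *gsp* sibling, and 515 in the *rhs* mutant against 819.6 in the *rhs* sibling. Its ratio in *gsp* was 0.744 (0.644 to 0.859) and that in *rhs* 0.628 (0.561 to 0.702), while both *gsp* libraries lay below both *rhs* libraries and the siblings were at 0.548. The *rhs* call was kept under 7 of 12 alternatives, but some of these only select transcripts and cannot change the ratio. Of those that change it, the call was kept with pseudocounts of 10 and 100 and with division by the library total. It was lost with median-centred ratios (log2 -0.47), TMM scaling (-0.50), the authors' normalized columns (-0.50) and the mean of both siblings (-0.30), and against the *gsp* sibling the *rhs* mutant was higher (0.20). *sfrp5* had 2452 in the *gsp* mutant against 3429 in the *gsp* sibling, and 2645 in the *rhs* mutant against 2849 in the *rhs* sibling, and *sfrp1a* had 9289 in the *gsp* mutant against 11902 in the *gsp* sibling, and 8697 in the *rhs* mutant against 10175 in the *rhs* sibling. For both of these the mutants lay below both siblings, with *gsp* ratios of 0.715 for *sfrp5* and 0.780 for *sfrp1a*, and *rhs* ratios of 0.928 and 0.855. A further transcript, described in the table as similar to secreted frizzled-related protein 2, was at the floor in both *gsp* libraries and at 492 in the *rhs* mutant against 476 in the *rhs* sibling. Whether reads were divided between it and *sfrp2* was not tested.

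The dickkopf genes held the lowest *gsp* ratio of the 40 members, that of *dkk2*, and the largest difference between the lines, that of *dkk1b*. *dkk2* (chr1:50899799-50945330) had 137 in the *gsp* mutant against 253 in the *gsp* sibling, and 166 in the *rhs* mutant against 197 in the *rhs* sibling. Both mutants lay below both siblings, and the ratio in *gsp* was 0.542 (0.437 to 0.669) and that in *rhs* 0.843 (0.681 to 1.04), with the siblings at 1.28. The *gsp* call was lost with the *rhs* sibling as control (log2 -0.52). It was kept with the mean of both siblings, with pseudocounts of 10 and 100 and under every scaling tried. *dkk1b* (chr12:7149376-7151185), an antagonist that promotes head formation, had 784 in the *gsp* mutant against 1008 in the *gsp* sibling, and 1223 in the *rhs* mutant against 745 in the *rhs* sibling. The *rhs* mutant was the highest of the 4 and the *rhs* sibling the lowest, the ratio in *gsp* was 0.778 (0.708 to 0.855) and that in *rhs* 1.64 (1.5 to 1.8), and the siblings differed 1.35-fold. The *rhs* call was lost with the *gsp* sibling as control (log2 0.28) and with the mean of both siblings (0.48). *dkk3*, a divergent member of the family and the one with the highest mean, had 1819.8 in the *gsp* mutant against 2154 in the *gsp* sibling, and 1508 in the *rhs* mutant against 1959 in the *rhs* sibling, with ratios of 0.845 (0.793 to 0.900) and 0.770 (0.719 to 0.824).

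Of the axins, *axin1* was lower in *rhs* and *axin2* did not pass the threshold. *axin1* (chr3:42959733-43030430), the scaffold of the β-catenin destruction complex, had 6486 in the *gsp* mutant against 6361 in the *gsp* sibling, and 4497 in the *rhs* mutant against 6658 in the *rhs* sibling. The *rhs* mutant stood apart from 3 libraries that lay close together. The ratio in *gsp* was 1.02 (0.985 to 1.06) and that in *rhs* 0.675 (0.650 to 0.702), only just past the limit of 0.676. The *rhs* call was kept under 6 of 14 alternatives, all of which only select transcripts and leave the ratio unchanged. It was lost under every alternative that changes the ratio, with log2 ratios between -0.565 and -0.368. These were pseudocounts of 10 and 100, every scaling tried, the *gsp* sibling as control and the mean of both siblings. *axin2* (chr3:56617107-56636704), whose transcription is a common readout of β-catenin signalling, had 5197 in the *gsp* mutant against 6544 in the *gsp* sibling, and 6480.3 in the *rhs* mutant against 7925 in the *rhs* sibling. Both mutants lay below both siblings, with *gsp* at a ratio of 0.794 (0.766 to 0.824) and *rhs* at 0.818 (0.791 to 0.845), sizes like that of the siblings' own ratio of 0.826.

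**Figure D3:**
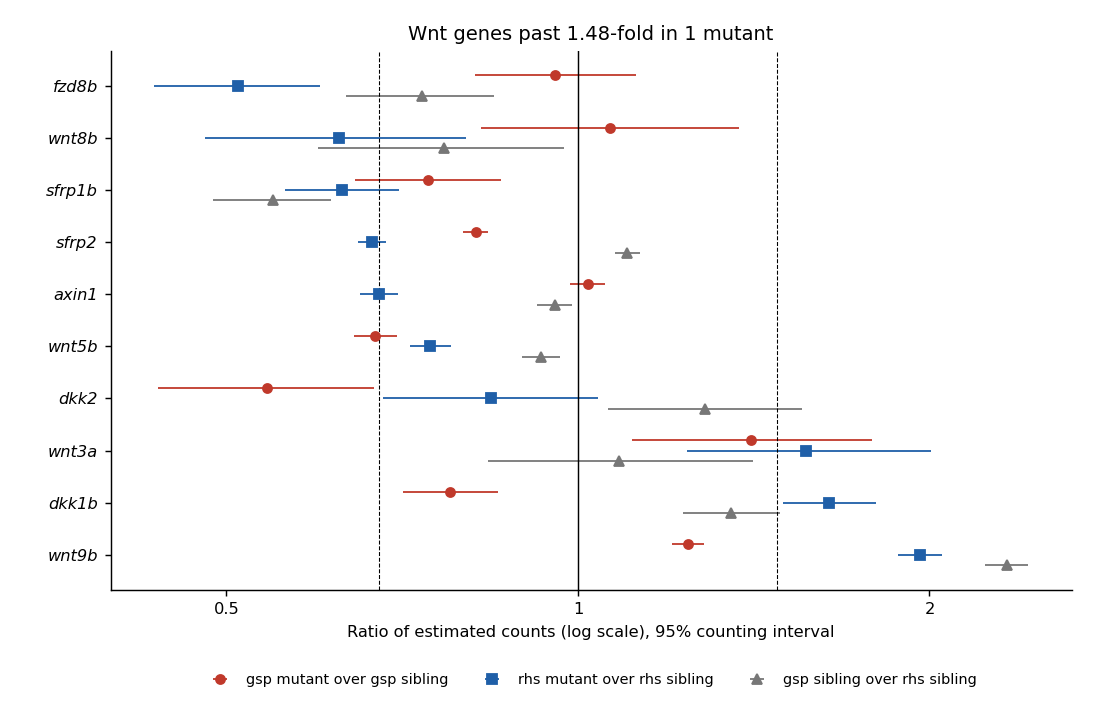
Ratios of estimated counts (log scale) for the 10 Wnt genes past 1.48-fold in 1 mutant, sorted by the *rhs* ratio: red circles *gsp* mutant over sibling, blue squares *rhs* mutant over sibling, grey triangles *gsp* sibling over *rhs* sibling, with 95% counting intervals as bars and dashed lines at 1.48-fold up and down. For *wnt9b* (2.33) and *sfrp1b* (0.548) the siblings differ more than mutant and sibling, and the interval of the ratio past the threshold crosses a dashed line for *wnt8b*, *sfrp1b*, *sfrp2*, *axin1*, *wnt5b* and *wnt3a*.

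Counted by order alone, both mutants lay below both siblings for 18 of 40 members (45%), against 33.4% of all transcripts. They were 6 ligands, 6 frizzled receptors, 3 secreted frizzled-related proteins, *dkk2*, *dkk3* and *axin2*. This count depended on the scaling: after TMM scaling it was 5 (*dkk2*, *fzd3b*, *fzd8a*, *wnt11r* and *wnt5b*), 12.5% of the members against 15.4% of all transcripts.

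Some paralogues and other close relatives had like ratios and others did not. The differences between them within *gsp* ran from -0.71 (*wnt3* minus *wnt3a*, log2) to 0.50 (*wnt10a* minus *wnt10b*), and within *rhs* from -0.56 (*wnt9a* minus *wnt9b*) to 0.92 (*wnt5a* minus *wnt5b*). *fzd3a* and *fzd3b* were among the closest, with differences of 0.01 in *gsp* and -0.08 in *rhs*, and *fzd7a* and *fzd7b* differed by 0.06 and -0.14.

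In *rhs*, markers of neurons stood lower as well. Of 7 measured, 6 were below the threshold, with a median log2 ratio of -0.89, and their summed count was 38169 in the *rhs* mutant against 67286 in the *rhs* sibling. *snap25b*, of the synaptic vesicle fusion machinery, was at a ratio of 0.468 and *elavl4*, an RNA-binding protein of neurons, at 0.508. In *gsp* no neuron marker passed the threshold and the sums were 50910.2 in the *gsp* mutant against 54321 in the *gsp* sibling. No neuron marker was at the floor. The part of this shift in the lower *fzd8b*, *wnt8b*, *sfrp1b*, *sfrp2* and *axin1* values of the *rhs* mutant was not tested. Of 11 skeletal muscle markers, 3 were higher in *gsp* and 5 lower in *rhs*, and of 7 lens markers 6 were lower in *gsp* and 5 in *rhs*. Periderm markers were split, with 3 of 12 higher and 6 lower in *gsp* and 5 higher and 0 lower in *rhs*. Of 5 basal epidermis markers, 2 were higher and 1 lower in *gsp* and 3 higher in *rhs*. Of 9 markers of neural progenitors and glia 1 was lower in *rhs*, of 7 of cartilage and connective tissue 2 were, and none of either passed in *gsp*. None of 8 red blood cell markers passed in either line. Only *hmcn2* of the fin fold list and *acana* and *twist1b* of the cartilage list were at the floor in all 4 libraries, among the 9 lists.

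The rest of the pathway was read from 5 lists that hold 61 measured genes outside the members. Of these 0 were higher and 4 lower in *gsp*, and 0 were higher and 15 lower in *rhs*, with median log2 ratios of -0.10 and -0.31. Over all transcripts 5.07% were higher and 4.83% lower in *gsp*, and 6.45% were higher and 12.6% lower in *rhs*. The direct target *neurog1* was only just inside the threshold in *gsp*, at a ratio of 1.4799, with the siblings at 0.580. Under each of the 4 scalings tried 1 of the 61 was higher in *gsp*. The number lower in *gsp* was 2 with median-centred ratios or TMM scaling, and 1 by library total. The *rhs* count followed the scaling: with median-centred ratios 3 of 61 were lower (*apc2*, *dvl1b* and *tcf7l2*), and the median was -0.11. With TMM scaling the same 3 were lower, with a median of -0.14. In the authors' normalized columns 4 were lower (median -0.15), and by library total 9 were (median -0.25). Of the 7 neuron markers 5 were still lower with median-centred ratios. *cthrc1a* was the one gene past the threshold in both mutants. It encodes a secreted collagen-triple-helix protein that in mouse acts as a cofactor of Wnt signalling through planar cell polarity, and it had 3084 in the *gsp* mutant against 4930.5 in the *gsp* sibling, and 3106 in the *rhs* mutant against 4934 in the *rhs* sibling. The siblings lay within 1% of each other and so did the mutants, with *gsp* at a ratio of 0.626 (0.598 to 0.654) and *rhs* at 0.630 (0.602 to 0.659). Under none of the 4 scalings tried was it past the threshold in both.

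Among the 10 genes of ligand trafficking and extracellular cofactors, 2 were lower in *gsp* and 3 in *rhs*. Beside *cthrc1a*, *tpbgl*, a membrane glycoprotein gene, was at 0.666 (0.610 to 0.727) in *gsp* and 0.799 in *rhs*. *rspo3*, the gene of an R-spondin that raises the level of frizzled receptors at the cell surface, had 1307 in the *gsp* mutant against 1555 in the *gsp* sibling, and 981 in the *rhs* mutant against 1533 in the *rhs* sibling. *frzb*, a further secreted Wnt antagonist, was at 0.835 in *gsp* and 0.670 (0.557 to 0.799) in *rhs*, with the siblings past the threshold as well, at 1.51. Of 10 genes of alternative receptors and planar cell polarity, *vangl1* (0.648, 0.582 to 0.720) and *prickle2* (0.673, 0.636 to 0.711) were lower in *rhs* and 0 in *gsp*.

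Of 25 cytoplasmic regulators of β-catenin, 6 were lower in *rhs* and 0 passed in *gsp*. The largest were *apc2*, of the destruction complex, at 0.514 (0.459 to 0.576), *dvl1b*, a dishevelled that relays the frizzled signal, at 0.580 (0.492 to 0.686), the kinase *csnk1e* at 0.599 (0.560 to 0.641) and the ubiquitin ligase *siah2l* at 0.613 (0.583 to 0.644). For *apc2* and *siah2l* the siblings differed by more, at 0.435 and 0.306. β-catenin itself hardly differed: *ctnnb1* had 69520.0 in the *gsp* mutant against 69816 in the *gsp* sibling, and 70487 in the *rhs* mutant against 75654 in the *rhs* sibling, and *ctnnb2* was at 1.08 in *gsp* and 1.02 in *rhs*. Of 8 nuclear effectors 3 were lower in *rhs* and 0 passed in *gsp*. *tcf7l2*, the TCF factor with roles in brain and gut, had 8234 in the *gsp* mutant against 7275 in the *gsp* sibling, and 6158 in the *rhs* mutant against 12031 in the *rhs* sibling, with *gsp* at a ratio of 1.13 (1.1 to 1.17) and *rhs* at 0.512 (0.496 to 0.528). Its siblings also differed past the threshold, at a ratio of 0.605. *pygo2*, a co-activator of β-catenin, and *aes*, a Groucho-related gene, were at 0.663 and 0.642 in *rhs*, and *lef1* was at 0.947 in *gsp* and 0.727 (0.696 to 0.759) in *rhs*.

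The list of direct targets of β-catenin held 12 measured genes, with the members *axin2* and *dkk1b* among them. In *gsp* 2 were lower: *fgf8a*, a growth factor of the brain and fin buds, at 0.528 (0.479 to 0.580), with 661 in the *gsp* mutant against 1253 in the *gsp* sibling, and 1092 in the *rhs* mutant against 1382 in the *rhs* sibling, and *tbx6*, a mesoderm factor, at 0.651 (0.534 to 0.793), where the siblings differed by a ratio of 0.419. In *rhs* *dkk1b* was higher and *nr2f1a*, a nuclear receptor of the brain, was lower at 0.663 (0.648 to 0.678). The list's median log2 ratio was -0.21 in *gsp* and -0.32 in *rhs*.

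**Figure D4:**
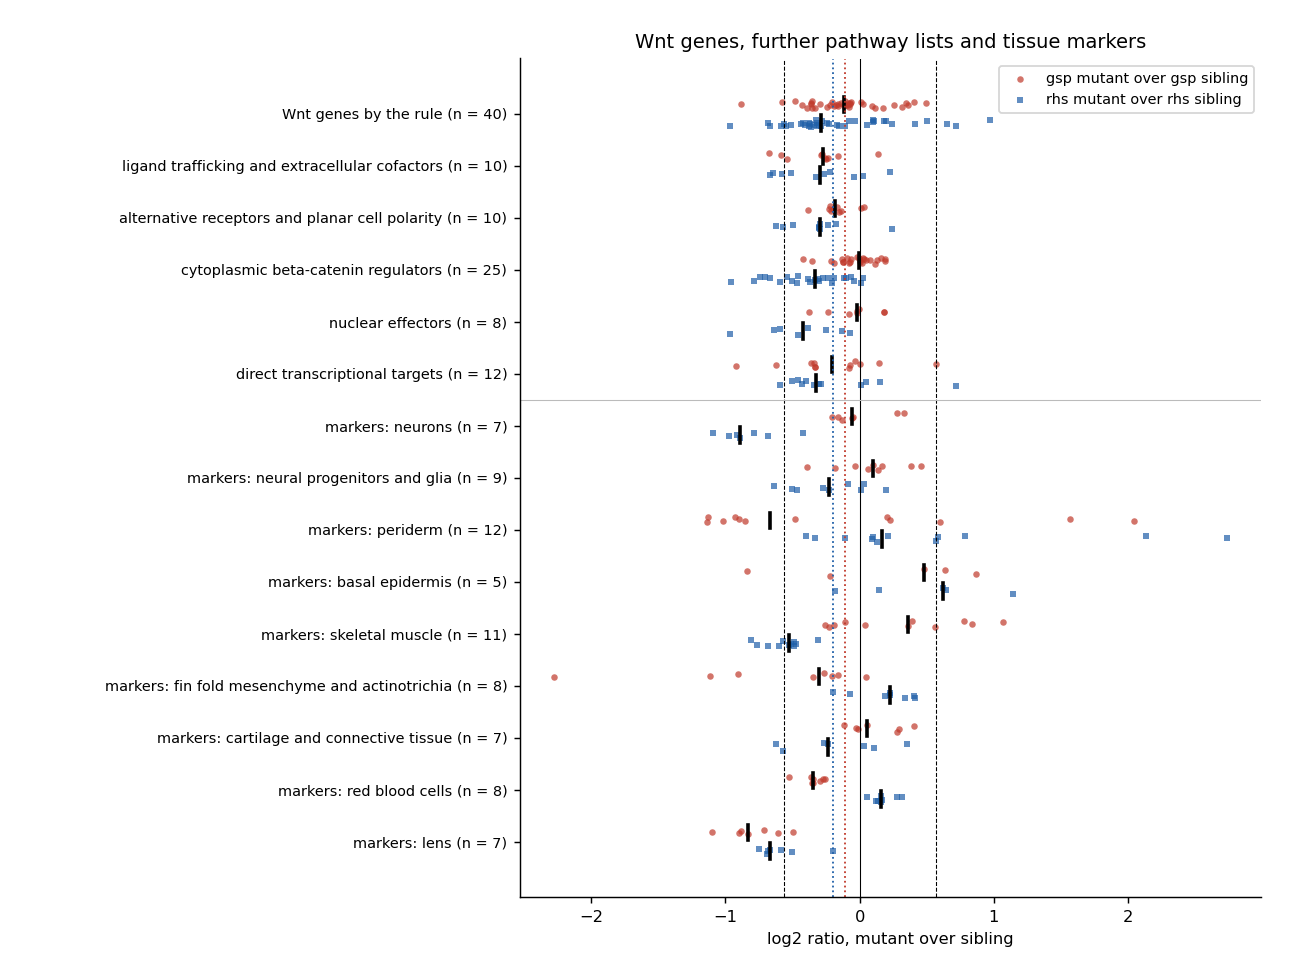
Log2 ratios of mutant over sibling for single genes (red circles *gsp*, blue squares *rhs*) in the 40 Wnt genes, 5 further pathway lists and, under the grey line, 9 lists of tissue markers; black bars are medians, dashed lines 1.48-fold and dotted lines the medians of all transcripts in each line's colour. The Wnt genes centre near the dotted lines, and the neuron markers in *rhs* lie far to the left (median -0.89).

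The 8 members under the minimum take part in no count. *wnt7ba* and *fzd9* were at the floor in all 4 libraries, *wnt8a* lay between 4.37 and 8.51, and *wnt8-2*, which overlaps it on chromosome 14, between 12.7 and 26.0. *wnt7bb* lay between 54.9 and 85.7, and *wnt2ba* between 80.6 and 139.6. *dkk1a* was at the floor in both *gsp* libraries but at 276 in the *rhs* mutant against 210.4 in the *rhs* sibling, and it is marked FL in *gsp* and MO in *rhs*. Of 326 transcripts at the floor in both *gsp* libraries and at 100 or more in both *rhs* libraries, 323 have marks that differ between the lines, so a value at the floor in 1 line is not read here as absence. The second entry of *fzd6*, 86247 bp from the first, had 255 in the *gsp* mutant against 342 in the *gsp* sibling, and 62.5 in the *rhs* mutant against 60.5 in the *rhs* sibling. The 2 transcripts described as similar to Wnt-6 and the one similar to Wnt-7a, which carry other symbols and are no members, were at the floor in all 4 libraries. One similar to frizzled-4 had 321 in the *gsp* mutant against 314 in the *gsp* sibling, and 349 in the *rhs* mutant against 457 in the *rhs* sibling.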

How the data were processed

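The authors deposited estimated counts per transcript in columns headed raw: they trimmed the reads, aligned them with TopHat 2.0 to danRer7 and calculated values with DEGseq. The paper calls them RPKM, but totals from 106188690 up are no RPKM, and 36.0% of 1875 values above the floor and under 10 were whole multiples of 1/101 within 0.01 bases, so they were treated as estimated counts, rounded for intervals. The plan had left the unit undecided. The deposited normalized columns hold log2 values that the authors shifted per library and centred per transcript. The authors' tables of fold changes were not used.

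Ratios of mutant over sibling were taken from unscaled values of transcripts with at least 100 in all 4 libraries (Python 3.11.15, pandas 2.3.3, scipy 1.17.1), and called past 1.48-fold, the study's threshold. TMM factors came from edgeR 4.0.16 in R 4.3.3, as an alternative only. Counting the list genes again after scaling was decided once the data had been seen. The code was tested on simulated data. Every member at the minimum could be named; values in every library are given for those past the threshold, for *axin1*, *axin2*, *lrp5*, *lrp6* and for the highest of each role, with others added after their values were seen. From each of the 5 pathway lists, up to 4 genes past the threshold were named, those with the largest mean absolute log2 ratio over the 2 lines. *ctnnb1*, *ctnnb2*, *lef1* and *myo5b* were named as well, and *neurog1* was added after its value was seen. Members, pathway lists and 9 marker lists (neurons, neural progenitors and glia, periderm, basal epidermis, skeletal muscle, fin fold, cartilage, red blood cells, lens) were chosen with earlier results of these data known. Sequences were not used here.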

Additional observations from a re-analysis of the deposited data

Results flagged for a closer look

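Without scaling, the mutant stood on opposite sides of its sibling in the 2 lines for 15 of 40 genes (37.5%). The other members were below 0 in both lines (52.5%) or above 0 in both (10%), against 54.6% and 16.1% of all transcripts. The rest of all transcripts stood on opposite sides or at 0 in a line, a smaller share than among the members. Sides depend on the scaling, and unscaled the median log2 ratio of all transcripts was -0.11 in *gsp* and -0.20 in *rhs*. With TMM scaling or division by the library total, *fzd10*, *wnt11* and *wnt5a*, all among the 15, had both mutants above both siblings. The count of 15 was not taken again after scaling. For *wnt1*, *wnt10b*, *wnt11* and *wnt2bb*, among the 15, the counting interval held a ratio of 1 in both lines. For 5 of the 15 the lines also differed by 1.48-fold or more. The log2 ratio in *gsp* minus that in *rhs* was 0.59 for *axin1*, -0.59 for *wnt5a*, 0.66 for *wnt10a*, -1.08 for *dkk1b* and 0.77 for *wnt8b*. In *gsp* the counting interval held a ratio of 1 for *axin1* (0.985 to 1.06), *wnt5a* (0.786 to 1.13) and *wnt8b* (0.826 to 1.37). For these no direction is set in *gsp*. The *rhs* interval of *wnt10a* (0.646 to 0.990) held the median ratio of all transcripts in *rhs*, 0.872. With 1 library per condition the differences between the lines were not tested.

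For 3 transcripts left out of the ratios, at least 1 library held a clear value: the highest was 139.6 for *wnt2ba* (in the *gsp* sibling), 276 for *dkk1a* (in the *rhs* mutant) and 342 for the second entry of *fzd6* (in the *gsp* sibling).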

How the results depend on the processing

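The count of members past the threshold was 2 in *gsp* and 8 in *rhs*. With a minimum of 1000 in place of 100 it was 1 and 3 of 22 members. These are 4.5% and 13.6%, against 7.60% and 13.7% of all transcripts at that minimum. With a pseudocount of 100 it was 1 and 5, or 2.5% and 12.5%, against 7.78% and 15.1% of all transcripts. With a threshold of 2-fold it was 0 and 0, against 2.64% and 4.50% of all transcripts. With the other line's sibling as control it was 8 in *gsp* and 5 in *rhs*. These are 20% and 12.5% of the members, below the 27.7% and 29.3% of all transcripts. With the mean of both siblings the count was 5 and 4, or 12.5% and 10%, below the 16.7% and 22.3% of all transcripts. Over transcripts marked FL in both lines, an alternative chosen after seeing the data, it was 1 in *gsp* and 7 in *rhs*. These are 3.33% and 23.3%, against 10.1% and 17.5% of all such transcripts. The count past it the same way in both mutants was 0, and 1 with median-centred ratios, TMM scaling or values divided by the library total. The median log2 ratio of the members in *gsp*, -0.12, was -0.0077 when median-centred, -0.011 with TMM scaling and 0.0091 by library total. In *rhs*, -0.28, it was -0.09 when median-centred, -0.11 with TMM scaling, -0.12 in the authors' normalized columns and -0.22 by library total. With the other line's sibling, *sfrp1b* in *rhs* reversed to 0.20 and *wnt9b* to -0.25. The cause of these changes was not tested.

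Values divided by the library total gave 4 members higher and 3 lower in *rhs*. Either way together these are 17.5% of the members, against 17.15% of all transcripts. No paired fit over the lines was run, and with 1 library per condition there was no replicate to leave out. The depth leaves ratios of genes near 100, such as *wnt3a* and *wnt8b*, with wide counting intervals.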
